A study of Mus musculus with 4 samples.

Results

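Aminoacyl-tRNA synthetases are the enzymes that join each amino acid to its transfer RNA. The genes described here were chosen by symbol: every probe set with a single gene symbol made of the letter of an amino acid and "ars" (with or without a final digit), together with Farsa, Farsb and Eprs. This gave 72 probe sets of 35 genes, among 18193 genes with a probe set of their own on the array. Of the 35, 19 encode cytosolic enzymes and the 16 whose symbol ends in 2 encode mitochondrial enzymes.

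The cytosol and the mitochondrion each make protein with their own set of transfer RNAs, and in mammals most amino acids have a separate nuclear gene for the synthetase of each compartment. Kars and Gars are known to supply both. Several cytosolic synthetases are held in a large multisynthetase complex around small scaffold proteins, and many cytosolic synthetase genes are targets of the transcription factor ATF4, which acts when amino acids run short. Mitochondrial synthetases serve only the few proteins encoded in mitochondrial DNA, all of them parts of the respiratory chain or ATP synthase, and muscle depends heavily on these.

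RNA of the tibialis anterior, the fast muscle at the front of the shin, was hybridised to 4 Affymetrix Mouse Genome 430 2.0 arrays, 1 for each group. The groups were mdx mice and mdx/MMP-2-/- mice, each at 1 month and at 3 months, all labelled C57BL/6J. All 4 groups therefore lack dystrophin, and the double mutant also lacks the secreted gelatinase MMP-2 in every cell. No array of muscle with dystrophin was used, so growth and disease cannot be told apart in the age differences. Whether RNA of several animals was pooled is not stated in the sources used here. With 1 array per group no difference between groups has a replicate check. "Higher" and "lower" describe these arrays only, and their small number sets the precision.

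The muscle label held: the 10 skeletal fibre markers (among them Ckm, Acta1 and Mylpf) had summed signals of 134376 to 136969 on the 4 arrays and none was at the floor. Quantile scaling holds such bright probe sets at nearly equal levels. Mmp2 had scaled signals of 974 and 835 in mdx and 20.8 and 38.4 in mdx/MMP-2-/- at 1 and 3 months. The deposited signals stood at different levels, with 2% trimmed means from 90.4 to 122.4, the highest in mdx/MMP-2-/- at 3 months. They were therefore quantile scaled, and signals under a floor of 17.4, the median of all signals, were raised to it. The Actb control probe sets at the 3' and 5' ends of the transcript, whose ratio grows as RNA degrades, gave ratios of 1.05 to 1.19 at 1 month and 2.09 to 2.36 at 3 months. The same ratio for Gapdh changed far less, from 0.85 to 0.883 at 1 month and 0.935 to 0.936 at 3 months.

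Each gene was represented by its probe set with the highest mean signal. All 35 genes exceeded the floor in at least 1 array, as did 12780 genes in all, and only Mars2 (mitochondrial methionyl-tRNA synthetase) was at the floor in any array. Probe sets bind with different strength, so signals are compared here between arrays and not between genes. Most synthetase genes differed little among the 4 arrays: the ratio of the highest to the lowest signal had a median of 1.28 in the cytosolic genes and 1.44 in the mitochondrial genes, against 1.36 over all 12780 genes. Kars, the lysyl-tRNA synthetase of both compartments, ranged from 385 to 411 (1.07-fold). The widest range belonged to Farsa, the catalytic alpha subunit of cytosolic phenylalanyl-tRNA synthetase, at 3.76-fold.

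**Figure D1:**
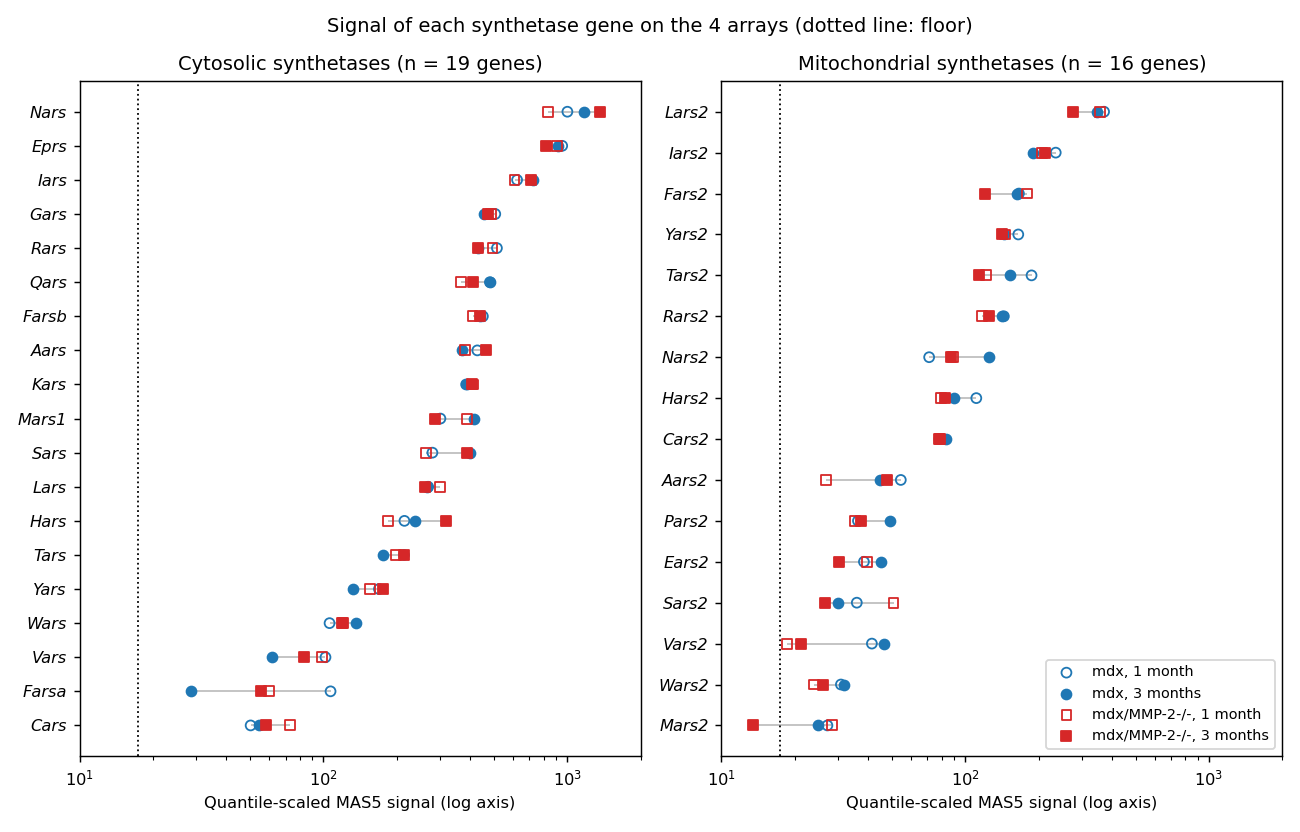
Quantile-scaled signal (log axis) of the 19 cytosolic and 16 mitochondrial synthetase genes, 1 point per array, with a grey line from the lowest to the highest array and the floor of 17.4 as a dotted line. Points of most genes lie close together. Farsa, Vars2 and Aars2 spread most, and all 3 have signals of 107 or less.

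At 1 month most synthetase genes were slightly lower in mdx/MMP-2-/- than in mdx. Of 35 genes, 25 were lower and 10 higher, with a median log2 difference of -0.07, while over all 12780 genes 48.3% were lower and the median was 0.0. At or past 1.5-fold, 4 genes were lower (11.4%) and 0 higher, against 3.58% lower and 3.51% higher of all genes. On the signals as deposited, where the median over all genes was 0.09, 17 were lower and 18 higher.

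The 4 were Vars2, Aars2, Farsa and Tars2, of which 3 are mitochondrial. Vars2, which charges valine in mitochondria, had signals of 41.4 in mdx and 18.6 in mdx/MMP-2-/- at 1 month, 2.23-fold lower and close to the floor. Aars2, the mitochondrial alanyl enzyme, had 54.4 and 26.8, 2.03-fold lower. Of these genes, Aars2 alone had no further probe set above the floor.

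Farsa had signals of 107 in mdx and 59.7 in mdx/MMP-2-/- at 1 month, 1.80-fold lower. Tars2, which charges threonine in mitochondria, had 187 and 122, 1.53-fold lower. Its other probe set went the opposite way, with 49.6 in mdx and 61.1 in mdx/MMP-2-/-. The further probe set of Farsa that passed the floor also went the opposite way, from under the floor (5.6) to 22.4.

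Among genes under the threshold, Hars2 (mitochondrial histidyl enzyme) was 1.39-fold lower at 1 month, 111 against 79.7, and its other probe set gave 46.0 against 28.8. Qars, the glutaminyl-tRNA synthetase, was 1.31-fold lower (482 against 368), with probe sets on both sides. The highest ratios the other way were 1.45-fold for Cars (cysteinyl enzyme, 50.3 in mdx against 72.9) and 1.42-fold for Sars2 (mitochondrial seryl enzyme, 35.9 against 50.8). These lay within the 1.5-fold limit.

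At 3 months the compartments lay apart. Of the 16 mitochondrial genes, 14 were lower in mdx/MMP-2-/-, with a median log2 difference of -0.30, and of the 19 cytosolic genes 11 were higher and 8 lower, with a median of 0.05. Over all 12780 genes 48.1% were lower and the median was 0.0. The unscaled signals, whose median over all genes was 0.41, gave a mitochondrial median of 0.14 and 12 of 16 genes higher. Set against that median of all genes, 13 of the 16 were still on the lower side. No test of this difference between compartments was made.

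Single mitochondrial genes were mostly lower by less than 1.5-fold at 3 months. Vars2 had signals of 46.3 in mdx and 21.2 in mdx/MMP-2-/-, 2.18-fold lower, the 1 gene of 35 at or past 1.5-fold lower (2.86%, against 3.32% of all genes). Its second probe set, under the floor on the other 3 arrays, gave 42.2 in mdx/MMP-2-/- against 7.67 in mdx. With the mean of both probe sets the log2 difference of Vars2 was 0.07.

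Ears2, which loads glutamate onto the mitochondrial transfer RNAs for glutamate and glutamine, was 1.48-fold lower at 3 months (45.2 in mdx, 30.4 in mdx/MMP-2-/-). Nars2, the mitochondrial asparaginyl enzyme, was 1.42-fold lower (125 against 87.8). Mars2 was at least 1.43-fold lower, with 24.9 against 13.5, the latter under the floor. The higher signals in mdx at 3 months were thus spread over enzymes for many amino acids.

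Tars2 (153 against 114) and Fars2, the mitochondrial phenylalanyl enzyme (163 against 121), were 1.35-fold and 1.34-fold lower. Their other probe sets were not lower, with 59.7 against 66.4 for Tars2 and 101 against 102 for Fars2. Pars2, the mitochondrial prolyl enzyme, was 1.32-fold lower (49.2 against 37.2), and Lars2, the leucyl enzyme, had a difference of -0.32 on the log2 scale (346 against 276). Of the 16, only Iars2 and Aars2 were higher, by 1.12-fold and 1.06-fold. Averaged over each gene's probe sets, 13 of 16 genes were lower, with a median of -0.18. That average could not reverse Aars2, Ears2, Mars2, Nars2, Pars2, Rars2 or Sars2, which had no further probe set above the floor.

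Across both ages, 9 of the 16 mitochondrial genes were lower in mdx/MMP-2-/- each time and 0 were higher each time, against 23.2% and 22.3% of all 12780 genes. The 9 were Cars2, Hars2, Lars2, Pars2, Rars2, Tars2, Vars2, Wars2 and Yars2, several by under 1.1-fold at 1 of the ages. These counts rest on the brightest probe sets. Another probe set was higher at both ages for Tars2 (log2 differences of 0.30 and 0.15) and for Cars2 (1.09 and 0.14). A further one of Cars2 gave 0.19 and -0.53, that of Wars2 0.71 and -0.52, and that of Vars2 was higher at 3 months. The other probe sets of Hars2 and Yars2 were lower at both ages. Of the cytosolic genes, 5 were lower at both ages (Eprs, Iars, Qars, Rars and Sars) and 2 were higher (Cars and Kars), or 26.3% and 10.5%. Iars, Rars and Sars differed by under 1.1-fold at both ages, and another probe set of Qars was higher at both (0.06 and 0.17).

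**Figure D2:**
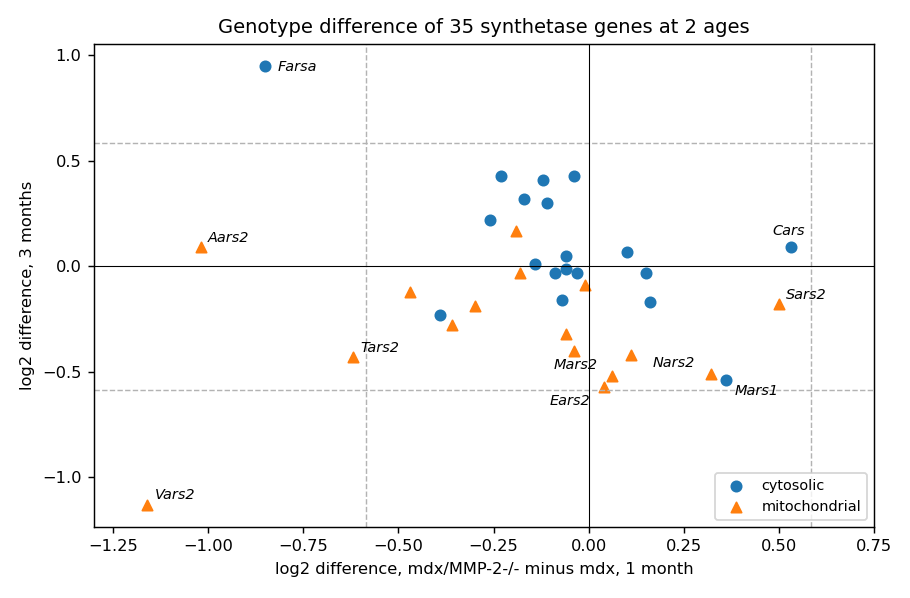
Log2 difference between mdx/MMP-2-/- and mdx at 1 month (horizontal) and 3 months (vertical) for the 35 synthetase genes, with dashed lines at 1.5-fold. Vars2 lies low at both ages, Farsa turns from -0.85 to 0.95, and 14 of the 16 mitochondrial genes (triangles) lie under 0 at 3 months.

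The cytosolic genes were also compared by membership of the multisynthetase complex, a list taken from textbook knowledge, and no test of the difference between these groups was made. Of the 12 outside the complex, 10 were higher in mdx/MMP-2-/- at 3 months, with a median log2 difference of 0.26, although Farsb, Gars and Cars were higher by only 0.01 to 0.09. Of the 7 inside it (Eprs, Iars, Kars, Lars, Mars1, Qars and Rars), 1 was higher and 6 lower, with a median of -0.03, but 3 were higher with median scaling and 6 with no scaling. Set against the medians of all genes under those scalings, 0.04 and 0.41, 3 of the 7 were above and 4 below both times, and 11 of the 12 outside the complex were above. With the mean of all probe sets the median outside the complex was 0.09.

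Outside the complex, Farsa was 1.93-fold higher at 3 months, with signals of 28.6 in mdx and 55.3 in mdx/MMP-2-/-. It was the 1 gene of 35 at or past 1.5-fold higher (2.86%, against 6.13% of all genes). Farsb, the beta subunit of the same enzyme, had 451 in mdx and 409 in mdx/MMP-2-/- at 1 month, and 437 and 439 at 3 months. That probe set of Farsb stayed within 1.10-fold on all 4 arrays, but a dimmer one gave 153 and 146 at 1 month and 116 and 79.3 at 3 months, a log2 difference between genotypes of -0.55 at 3 months. Whether the pattern of the 2 subunits is unlike is thus not settled by these arrays.

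Vars, the cytosolic valyl enzyme, was 1.35-fold higher in mdx/MMP-2-/- at 3 months (61.6 in mdx, 82.9). Hars, the histidyl enzyme and the Jo-1 autoantigen of myositis, was 1.34-fold higher (237 against 319), although its other probe set gave 129 and 132. Yars, the tyrosyl enzyme, was 1.33-fold higher (132 against 176). By their brightest probe sets all 3 were slightly lower in mdx/MMP-2-/- at 1 month, but the other probe set of Hars was higher (130 in mdx, 149).

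Aars, the alanyl enzyme, was higher by 0.32 on the log2 scale at 3 months (371 against 463), with another probe set at 128 and 121. Tars, the threonyl enzyme, was 1.23-fold higher (175 against 215), and Nars, the asparaginyl enzyme, 1.16-fold (1175 against 1369). The other probe set of Nars went the opposite way, at 279 and 260. In all, 9 of the 19 cytosolic genes were lower in mdx/MMP-2-/- at 1 month and higher at 3 months by their brightest probe sets, as were 22.9% of all genes. Further probe sets above the floor of Aars, Farsa, Farsb, Hars and Nars did not show this turn. At 1 and 3 months that of Aars gave log2 differences of -0.09 and -0.07, and that of Hars 0.20 and 0.03.

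Inside the complex, Mars1, which charges methionine for initiation as well as elongation, had the largest genotype difference at 3 months. Its signals were 302 in mdx and 388 in mdx/MMP-2-/- at 1 month, and 416 and 287 at 3 months, so it was 1.29-fold higher and then 1.45-fold lower. Eprs, which charges both glutamate and proline, had 954 and 907 at 1 month and 917 and 821 at 3 months. Iars and Rars, the isoleucyl and arginyl enzymes, differed by at most 1.04-fold between genotypes at either age by their brightest probe sets, and a dimmer one of Iars had a log2 difference of -0.20 at 1 month. Of the complex's 3 scaffold genes, Aimp1, Aimp2 and Eef1e1, 0 passed 1.5-fold between genotypes. Of all genes, 3.32% to 6.13% did so in each direction at either age.

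**Figure D3:**
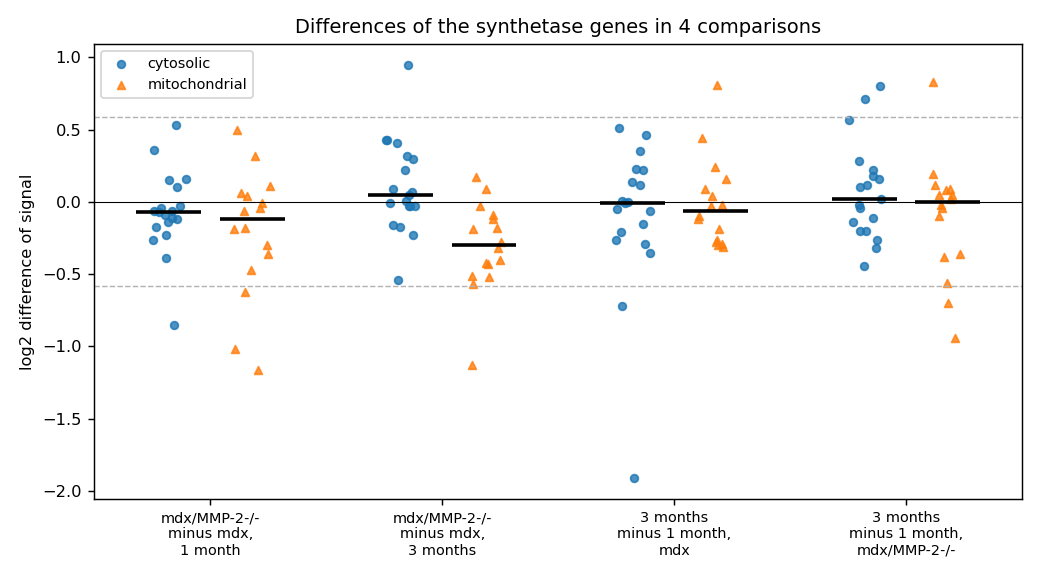
Log2 differences of the synthetase genes in the 4 comparisons, 1 point per gene, with the median of each compartment as a black bar and dashed lines at 1.5-fold. The mitochondrial median of -0.30 at 3 months between genotypes lies furthest from 0, and the lowest point is Farsa, 3 months against 1 month in mdx.

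At 3 months markers of inflammatory and dividing cells also stood higher in mdx/MMP-2-/-. All 15 macrophage and monocyte markers were higher (14 with cyclic loess scaling), with a summed signal of 15012 against 10066 in mdx (13733 in mdx and 12646 in mdx/MMP-2-/- at 1 month) and none at the floor. The 6 measured neutrophil markers summed to 740 against 142, with Csf3r and Mmp8 at the floor in mdx, and the 9 cell cycle markers to 988 against 682, with Bub1 at the floor in both. The fibre markers had a median log2 difference of -0.02, but with median scaling or cyclic loess all 10 were lower in mdx/MMP-2-/-, with medians of -0.30 and -0.14, and on unscaled signals all 10 were below the median of all genes. Fibroblast markers summed to 33897 against 31780, and endothelial markers to 1116 against 1152. The part of these cells or of the fibres in the synthetase differences was not tested. In bulk muscle, fewer cells of a type and less RNA per cell cannot be told apart.

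Wars, the tryptophanyl enzyme, is known to be induced by interferon. Its signals were 106 in mdx and 119 in mdx/MMP-2-/- at 1 month, and 136 and 120 at 3 months. Of its other probe sets, that with signals of 34.2 and 56.6 at 1 month was 0.72 higher on the log2 scale. The next brightest (97.5 and 102) was only 0.07 higher, and the dimmest 0.23 higher. Of 8 listed interferon response genes, 6 were measured. Their signals summed to 691 in mdx and 1219 in mdx/MMP-2-/- at 1 month and to 846 and 970 at 3 months. At 1 month 4 of the 6 were at or past 1.5-fold higher, against 3.51% of all genes. At 3 months 0 were, against 6.13%.

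Upstream sequence was examined because ATF4 is known to act on cytosolic synthetase genes through an element read here as TGATGNAA. RefSeq promoter windows (build GRCm38.p6, 250 bases before to 50 after the gene start) were held for 26 of the 35 genes. Cars, Hars, Hars2, Lars, Nars, Pars2, Rars, Vars and Wars were not matched. The element occurred on either strand in 5 of the 12 cytosolic genes with a window and 0 of the 14 mitochondrial genes, against 4.51% of all 27025 genes with a window (3.97% of 32851 windows). For each of the 5 genes, 1 match is shown on the sense strand, 5′ to 3′, 30 bases each, because they mark the members that share the element. Capitals mark the element, which reads TTNCATCA where it lies on the opposite strand.
Aars, from base 10 of the transcript, chr8:111033840-111033869, plus strand: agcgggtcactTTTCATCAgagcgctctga
Gars, 30 bases before the start, chr6:55037960-55037989, plus strand: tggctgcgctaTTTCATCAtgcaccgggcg
Iars, from base 8 of the transcript, chr13:49682126-49682155, plus strand: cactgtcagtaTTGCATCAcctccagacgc
Tars, 15 bases before the start, chr15:11399655-11399684, minus strand: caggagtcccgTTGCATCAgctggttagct
Yars, from base 4 of the transcript, chr4:129189895-129189924, plus strand: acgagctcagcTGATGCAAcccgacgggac

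A match says only that these letters stand in the window. Of the 5 genes with the element, Aars, Tars and Yars had log2 differences between genotypes of 0.32, 0.30 and 0.41 at 3 months, while Gars, the glycyl enzyme, and Iars had 0.05 and -0.03. At 1 month all 5 were slightly lower in mdx/MMP-2-/-, from -0.17 for Aars to -0.03 for Iars. The 5 did not move as a block.

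The other genes of the ATF4 response were counted in the same way. Of 28 listed genes, 24 were measured, and 1 was at or past 1.5-fold higher in mdx/MMP-2-/- at 1 month and 2 at 3 months, with 0 lower at either age, against 3.51% and 6.13% of all genes higher. At 1 month this was Ddit4, an inhibitor of mTOR signalling (639 in mdx, 1107 in mdx/MMP-2-/-). At 3 months they were Phgdh, which starts serine synthesis (122 against 188), and Slc7a1, a transporter of basic amino acids (87.7 against 135). Atf4 itself, named after its values were seen, had signals of 1186 and 1035 at 1 month and 1217 and 1299 at 3 months. The medians of the list were 0.10 and 0.04, and with median scaling, where all genes had a median of -0.10 at 1 month, the first was -0.02. Under that scaling 15 of the 24 genes were above the median of all genes, against 16 of 24 with quantile scaling.

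In mdx muscle, age altered few synthetase genes beyond 1.5-fold. At 3 months 21 of 35 were lower than at 1 month and 14 higher, with a median log2 difference of -0.03 against 0.0 for all genes. Past 1.5-fold, 2 were lower (5.71%, against 7.29% of all genes) and 1 higher (2.86%, against 5.96%). With median scaling 18 of 35 were higher, so the balance of directions is not settled. The age and genotype differences share arrays: both the 1-month genotype difference and the age difference in mdx use the mdx array at 1 month.

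Farsa was 3.76-fold lower at 3 months in mdx, with 107 at 1 month and 28.6 at 3 months. The mdx array at 1 month was the highest of the 4 for this gene and the mdx array at 3 months the lowest, and both mdx/MMP-2-/- arrays lay between them. Vars was 1.65-fold lower (102 against 61.6). Nars2 was 1.75-fold higher (71.1 against 125). Each of Vars and Nars2 had 1 probe set above the floor.

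Markers of regenerating fibres also differed with age, with summed signals of 4747 at 1 month and 1757 at 3 months in mdx and of 3824 and 2148 in mdx/MMP-2-/-. Their part in the synthetase differences was not tested. Among the 24 measured genes of the ATF4 response, 13 were higher and 11 lower at 3 months in mdx, with a median log2 difference of 0.04. At or past 1.5-fold, 3 were higher and 0 lower, against 5.96% and 7.29% of all genes. Chac1, which degrades glutathione, was 1.71-fold higher (268 against 460), and Nupr1, a stress-induced chromatin protein, 1.69-fold higher (112 against 190). Vldlr, a lipoprotein receptor, was 1.73-fold higher (1754 against 3035). In mdx/MMP-2-/-, 17 genes of this list were higher and 7 lower with age, with a median of 0.22. The 1 gene of this list past 1.5-fold there was Ddit3, a transcription factor of the stress response, at 1.56-fold lower (144 against 92.7). Of all genes, 6.69% were at or past 1.5-fold lower and 7.48% higher.

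In mdx/MMP-2-/- muscle, 18 of 35 genes were higher at 3 months and 17 lower, with a median of 0.02. Past 1.5-fold, 3 were higher (8.57%, against 7.48% of all genes) and 2 lower (5.71%, against 6.69%). Unscaled signals, with a median over all genes of 0.26, gave 27 higher and 8 lower. Both shares past 1.5-fold were near those of all genes.

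The 3 were Aars2, Hars and Nars. Aars2 had 26.8 at 1 month and 47.8 at 3 months, 1.78-fold higher. Hars had 184 and 319, 1.74-fold higher, and Nars 835 and 1369, 1.64-fold higher. The other probe sets of Hars (149 and 132) and Nars (296 and 260) were lower at 3 months, and the mean over probe sets gave log2 differences of 0.31 and 0.26.

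Both lower genes were mitochondrial. Sars2 had 50.8 at 1 month and 26.5 at 3 months, 1.92-fold lower. Mars2 had 28.4 and 13.5, at least 1.63-fold lower. Fars2 was 1.48-fold lower (179 against 121), with its other probe set lower by only 0.05 on the log2 scale.

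Sars, the seryl enzyme, was the only synthetase gene over 1.4-fold higher with age in both genotypes, 1.43-fold higher in mdx (280 against 399) and 1.48-fold higher in mdx/MMP-2-/- (263 against 390). Its other probe set went the opposite way in both, from 346 to 233 and from 331 to 234. Its direction with age is thus not settled by these arrays. In all, 9 synthetase genes were higher at 3 months in both genotypes and 12 lower (25.7% and 34.3%, against 30.1% and 28.0% of all genes).

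A stricter and a looser fold limit gave the following counts. At 2-fold or more, 2 of 35 were lower in mdx/MMP-2-/- at 1 month (Vars2 and Aars2) and 0 higher, against 0.595% and 0.587% of all genes. At 3 months 1 was lower (Vars2) and 0 higher, against 0.415% and 1.19%. With age, 1 was lower (Farsa) and 0 higher in mdx, against 1.56% and 0.962%, and 0 were lower and 0 higher in mdx/MMP-2-/-, against 1.23% and 1.48%. The few genes past this limit were thus Vars2, Aars2 and Farsa.

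At a looser limit, a log2 difference of 0.32, 7 were lower and 4 higher in mdx/MMP-2-/- at 1 month, against 11.8% and 11.3% of all genes. At 3 months 9 were lower and 4 higher, against 12.5% and 16.0%. With age, 3 were lower and 5 higher in mdx, against 18.8% and 17.5%, and 7 were lower and 4 higher in mdx/MMP-2-/-, against 17.5% and 19.7%. The largest count at this limit was thus on the lower side at 3 months between genotypes.

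Disagreement between probe sets was common. For the 15 synthetase genes with at least 2 probe sets above the floor on every array, the brightest and next brightest agreed in sign for 8 genes at 1 month and 6 at 3 months between genotypes, and for 8 (mdx) and 6 (mdx/MMP-2-/-) between ages. The median gap between them was 0.20 to 0.42 on the log2 scale. For 4309 genes of the whole array it was 0.21 to 0.33. With age in mdx, the brighter probe set was higher and the other lower for Nars, Hars, Iars and Sars. For Iars2 and Tars2 the brighter was lower and the other higher. The brighter probe set of Qars was level (482 on both arrays) with the other higher, and the dimmer one of Hars was nearly level (130 and 129). On the same mdx arrays the Actb ratio was 1.19 at 1 month and 2.36 at 3 months, and the Gapdh ratio 0.883 and 0.936. The part of RNA quality in the disagreement was not tested.

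**Figure D4:**
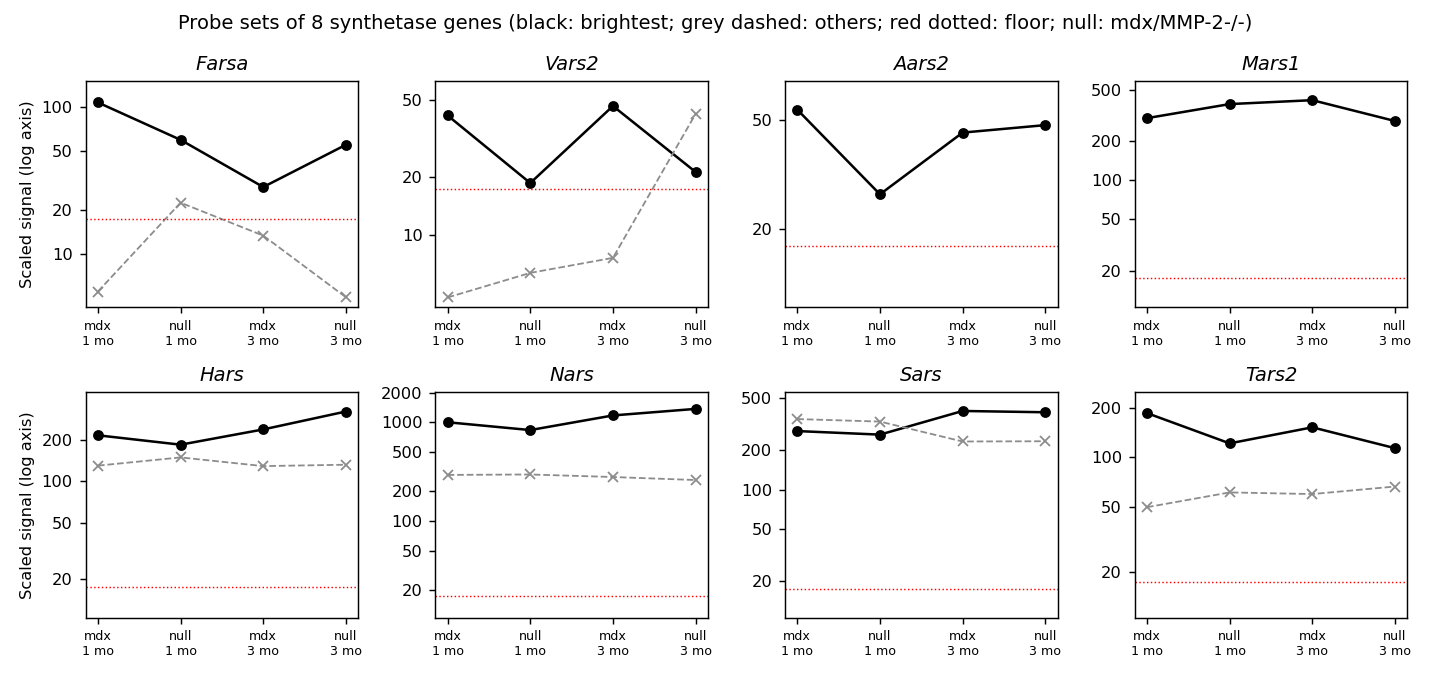
Scaled signals (log axis) of every probe set above the floor in at least 1 array, for 8 synthetase genes on the 4 arrays, with the brightest probe set in black and others in grey. Lines join the probe set's values and show no time course. Farsa, Hars, Nars, Sars, Tars2 and Vars2 have probe sets that go opposite ways in at least 1 comparison, and Aars2 and Mars1 have 1 probe set each.

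Most genes of the other parts of the charging pathway differed by less than 1.5-fold between genotypes, as did most of all genes. At 1 month 3.58% of all genes were at or past 1.5-fold lower, and at 3 months 3.32%. The mitochondrial route to glutaminyl-tRNA (Gatb, Gatc and Qrsl1) and the formyltransferase Mtfmt were all lower in mdx/MMP-2-/- at 1 month under every scaling tried. Their median was -0.24, with 0 of 4 past 1.5-fold. Of the 4 proteins that clear wrong or D-amino acids, Prorsd1 was 1.56-fold lower at 1 month (363 in mdx, 232 in mdx/MMP-2-/-). Of 8 genes for eIF2 and its kinases and phosphatase subunits that were measured, Ppp1r15a was 1.58-fold lower at 1 month (103 against 64.9).

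Among 7 measured factors of mitochondrial elongation, initiation and release, 6 were lower in mdx/MMP-2-/- at 3 months, with a median of -0.26. At or past 1.5-fold lower there were 0, against 3.32% of all genes. On unscaled signals 5 were higher. Relative to the median of all genes 6 of 7 were on the lower side under each scaling. Mtif3, an initiation factor, had 127 in mdx and 87.4 in mdx/MMP-2-/-, and Gfm2, which recycles mitochondrial ribosomes, 69.4 and 48.6. The 5 measured cytosolic elongation factors had a median of 0.05. With age, the scaffold gene Aimp2 was 1.59-fold lower in mdx (2100 against 1323) and 1.78-fold lower in mdx/MMP-2-/- (2065 against 1160).

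An additive model of genotype and age over the 4 arrays, fitted in limma with 1 residual degree of freedom, called 0 of 12780 genes (0%) for either term at an adjusted p under 0.05. The lowest adjusted p of a synthetase gene was 0.982 for genotype and 0.301 for age. Without adjustment, 2 of 35 genes were under 0.05 for genotype, against 4.37% of all genes: Vars2 (-1.14, SE 0.15) and Tars2 (-0.52, SE 0.16). For age there were also 2, against 13.8% of all genes: Sars (0.54, SE 0.15) and Sars2 (-0.60, SE 0.22). In limma's adjusted test none of these 4 passed. The residual of this model is the interaction of genotype and age, so the SEs hold no spread between replicate arrays. Another probe set was higher in mdx/MMP-2-/- for Tars2 at both ages and for Vars2 at 3 months, and another of Sars was lower with age.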

How the data were processed

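The authors deposited 1 intensity per probe set and array, linear MAS5 summaries. Per the submitters' processing notes, the software was Affymetrix Expression Console. Its version and scaling target are not given in the sources used here. Of 45101 probe sets, 64 controls were left out. GEO's platform annotation gave 34945 of the rest 1 symbol, 932 several and 9160 none. Probe sets with several symbols or none were not used.

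Arrays were quantile normalized in limma 3.58.1 (R 4.3.3), floored at 17.4 (50th percentile) and log2 transformed. A gene was represented by its probe set with the highest mean scaled signal, and genes at the floor on all arrays were left out. Genes were counted at or past 1.5-fold. Any synthetase gene could be named, and up to 4 members of other lists by largest difference. Members and lists were chosen with earlier results of these data known. The additive fit (lmFit, eBayes, Benjamini-Hochberg) was tested on simulated data. Alternatives were median scaling, cyclic loess, no scaling, floors at the 40th and 60th percentiles, a pseudocount of 4.36 in place of a floor, a gene's averaged probe sets, leaving out probe sets ending in _x_at or _s_at, limits of 0.32 (log2) and 2-fold, a signal-dependent prior variance and unadjusted p. Probe sets were floored before averaging, so those under the floor on all arrays drew a gene's averaged difference towards 0. Promoter windows came from RefSeq (GRCm38.p6). The match nearest the gene start is printed, and 1 further match is not reported here. Tables were made in Python 3.11.15.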

Additional observations from a re-analysis of the deposited data

Results flagged for a closer look

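Farsa was singled out because its genotype difference passed 1.5-fold in opposite directions at the 2 ages: the log2 difference between mdx/MMP-2-/- and mdx was -0.85 at 1 month and 0.95 at 3 months. The difference between the ages was not tested. Its further probe sets were near or under the floor, and the mean of all its probe sets gave -0.12 and 0.24. Probe sets at the floor on both arrays enter that mean as a difference of 0, so it is no check of the brightest probe set.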

How the results depend on the processing

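No paired analysis was possible because each group has 1 array, which also leaves no replicate to leave out. At 1 month between genotypes, the 4 genes past 1.5-fold lower became 1 with the mean of all probe sets, 2 at 2-fold and 7 at a log2 limit of 0.32, and the 0 higher became 2 without scaling, 1 without _x_at and _s_at probe sets and 4 at 0.32. The median of -0.07 was -0.20 with median scaling, where all genes had -0.10. At 3 months the 1 higher gene became 8 without scaling, 0 with the mean of all probe sets, 0 at 2-fold and 4 at 0.32. The 1 lower became 2 with the 40th percentile floor or with no floor, 0 with the mean of all probe sets and 9 at 0.32. Without scaling the median was 0.38, against 0.41 for all genes, that of the mitochondrial genes reversed to 0.14, and with the mean of all probe sets Vars2 reversed to 0.07.

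With age in mdx, the 1 higher gene became 2 with median scaling, 0 with the mean of all probe sets, 0 at 2-fold and 5 at 0.32, and the 2 lower became 1 with the mean of all probe sets and 1 at 2-fold. In mdx/MMP-2-/- the 3 higher became 5 without scaling and 0 at 2-fold, and the 2 lower became 1 with the 60th percentile floor or the mean of all probe sets, 0 at 2-fold and 7 at 0.32. The median of 0.02 became 0.20 with median scaling and 0.26 without scaling, where all genes had 0.19 and 0.26, and -0.10 without _x_at and _s_at probe sets. The additive fit called 0 synthetase genes under every scaling, floor and probe set choice, and 2 for each term at unadjusted p. The medians without scaling and with median scaling moved with those of all genes, and the cause of the other shifts was not tested. Mitochondrial genes such as Vars2 and Mars2 had signals near the floor, which limits how firmly their differences can be read.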

Other observations

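Tarsl2, a further cytosolic threonyl-tRNA synthetase that the symbol rule passes over, had scaled signals of 299 in mdx and 265 in mdx/MMP-2-/- at 1 month, and 269 and 190 at 3 months. Its log2 difference between genotypes was -0.18 at 1 month and -0.50 at 3 months, where Tars had -0.11 and 0.30. It was named after its values were seen, and the unlike directions at 3 months were not tested.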
